A study of Oryctolagus cuniculus with 16 samples.

Results

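The T cell receptor complex and its signaling genes were examined as a group of 9 genes, namely *CD3E*, *CD3G*, *CD4*, *CD8A*, *CD2*, *CD28*, *LCK*, *ZAP70* and *IL7R*. They were picked by name out of the 20255 genes (16842 mRNAs and 3413 lncRNAs) that were quantified in the femoral head. The table listed 8 of the 9 under their own symbols. *ZAP70* was listed under the placeholder symbol LOC100342021 and was found through its RefSeq gene ID (100342021), so that all 9 were accounted for. Of these, 8 held enough reads to be tested between the groups, and *CD3G* did not.

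Total RNA of the femoral head was sequenced in a Perthes disease group of 5 rabbits and a control group of 3. The rabbits of the Perthes disease group were wild-type animals operated on at 8 weeks of age, and their model is one of surgical ischemia, made at the hip by ligation of the femoral neck together with division of the ligamentum teres. The control rabbits were healthy wild-type animals, and neither a sham operation, the age of the controls nor the time from operation to sampling is given in the sources used here. The comparison asked which genes were expressed at another level in the femoral head with Perthes disease than in the healthy one. The last control rabbit is numbered 3 by its code but not by its title, and is called control rabbit 3.

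T cells recognize peptides on the molecules of the major histocompatibility complex through the T cell receptor, which cannot signal by itself and relies on the CD3 chains that surround it. The coreceptors CD4 and CD8 bring the kinase LCK to the receptor, LCK phosphorylates the tails of the CD3 chains, and the kinase ZAP70 docks there and passes the signal on. CD2 and CD28 bind ligands on the antigen-presenting cell and strengthen the signal, and the interleukin 7 receptor keeps resting T cells alive. T cells live in the bone marrow of healthy long bones as a minority population. Several of these genes are also used by other cells, such as *CD4* by macrophages of some species, *CD2* and *CD8A* by natural killer cells, and *IL7R* by B cell precursors and innate lymphoid cells.

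The libraries held 26757087 to 29461482 counts. Levels are given as CPM, the counts of a gene relative to all counts of its library, scaled between libraries by TMM factors. Groups were compared by edgeR's quasi-likelihood test with Benjamini-Hochberg adjustment over 15305 genes, and a gene was called at an adjusted p below 0.05. Bone and cartilage markers were abundant in every library, with *COL1A1* at 44666 to 143897 CPM and *COL2A1* at 29008 to 116594 CPM. The marker lists of other marrow cells differed between the groups. The 7 neutrophil markers summed to 20.6 to 1393 CPM in the Perthes disease group and 4584 to 17284 CPM in the control group, and the 7 erythroid markers to 646 to 2434 CPM and 4855 to 5499 CPM. The 10 macrophage markers summed to 478 to 1925 CPM in the Perthes disease group and 395 to 460 CPM in the control group. In these bulk samples, fewer cells of a type and less RNA per cell cannot be told apart.

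Of the 8 tested genes of the group, 2 were higher in the Perthes disease group, none was lower and 6 were not called. The 2 were *CD28*, the costimulatory receptor, with a 9.91-fold higher level, and *IL7R*, the interleukin 7 receptor chain, with an 8.07-fold higher level. Among all genes tested, 6.21% were called higher and 8.86% lower. The receptor chains, the coreceptors and the kinases were measured at low levels and their groups overlapped, with mean levels in the Perthes disease group between 0.553 and 1.23 times those of the control group. The median log2 fold change of the 8 tested genes was -0.51, against 0.02 over all genes tested, and 5 of the 8 had a negative fold change, against 48.4% of all genes. Both groups were fully separated for 2 of the 9 genes, *CD28* and *IL7R*, while 11.2% of all tested genes had every Perthes rabbit above every control rabbit and 13.9% had every Perthes rabbit below. At an unadjusted p below 0.05, edgeR found the same 2 genes, and DESeq2 also found *CD8A* and *LCK*, both lower, with adjusted p of 0.123 and 0.144 in DESeq2. Over the whole table, 4883 of 15305 genes were below this unadjusted p in edgeR. In DESeq2, which gave 17451 genes an adjusted p, 5567 were below it.

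**Figure D1:**
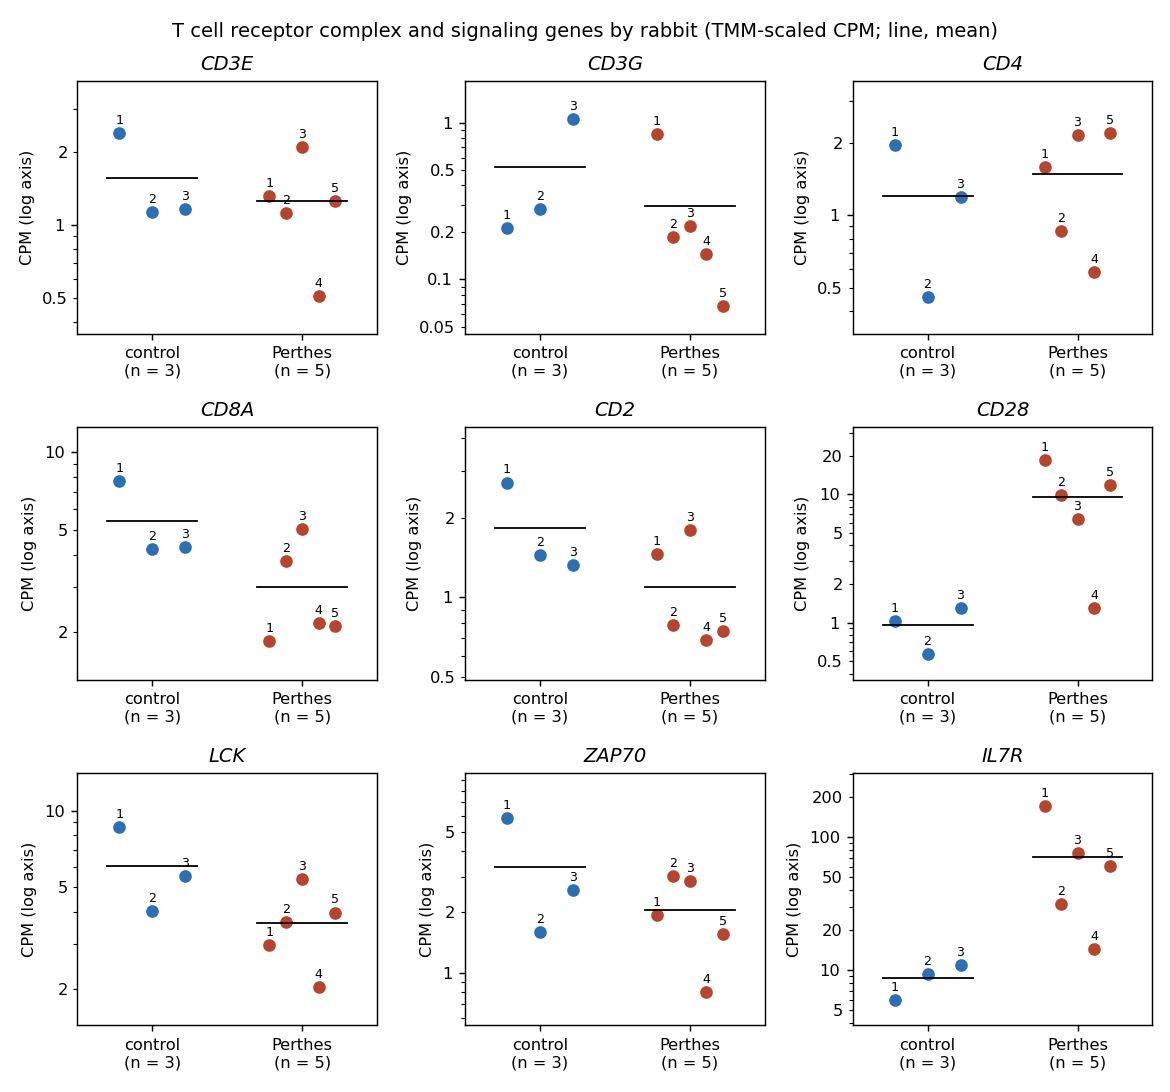
CPM of the 9 genes (log axes, TMM-scaled) in the 3 control rabbits (blue) and the 5 Perthes rabbits (red), each point 1 rabbit with its number and each line the group mean. The groups are apart for *CD28* and *IL7R*, and overlap for the other 7 genes.

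*CD3E* encodes the epsilon chain of CD3, a part of every T cell receptor complex and a common marker of T cells. Its level in Perthes rabbits 1 to 5 was 1.32, 1.12, 2.09, 0.509 and 1.26 CPM, and in control rabbits 1 to 3 it was 2.39, 1.13 and 1.16 CPM. The groups overlapped, with control rabbit 1 above and Perthes rabbit 4 below all other rabbits. The mean was 1.26 ± 0.566 CPM in the Perthes disease group (SD, n = 5) and 1.56 ± 0.721 CPM in the control group (SD, n = 3). A log2 fold change of -0.31 was fitted (SE 0.46, edgeR adjusted p = 0.674), and it became 0.14 without control rabbit 1, so that no direction was established. The counts behind these levels were small. Perthes rabbit 4 held 14 counts of *CD3E* (exact 95% Poisson interval 7.65 to 23.5) and control rabbit 1 held 67 (51.9 to 85.1), intervals that cover counting error only. In 6 of 8 libraries the deposited value of *CD3E* was not a whole number, and its fractional part was the complement of that of the lncRNA LOC108175843, with which it shared reads.

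*CD3G* encodes the gamma chain of CD3, and its reads were split between database entries. The entry named *CD3G* (gene ID 100352809) was given 25, 5, 6, 4 and 2 counts in Perthes rabbits 1 to 5. It was given 6, 8 and 32 counts in control rabbits 1 to 3, and these were too few to be tested. Perthes rabbit 1 and control rabbit 3 stood above all other rabbits, and the mean of the Perthes disease group was 0.563 times that of the control group. A second entry described as a CD3 gamma chain, LOC100355340, was given 30, 37, 57, 7 and 46 counts in the Perthes disease group and 81, 45 and 24 in the control group. The deposited values of the 2 entries were fractional, but their sum was a whole number in all 8 libraries within a tolerance of 0.021. The share of the sum given to the entry named *CD3G* ranged from 3.15% in Perthes rabbit 5 to 57.8% in control rabbit 3, and was 45.4% in Perthes rabbit 1. The level of *CD3G* taken alone is therefore uncertain.

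Summed over both entries, a step chosen after the data were seen, the CD3 gamma chain was at 1.86, 1.57, 2.31, 0.400 and 1.63 CPM in Perthes rabbits 1 to 5. It was at 3.11, 1.87 and 1.86 CPM in control rabbits 1 to 3. As for *CD3E*, Perthes rabbit 4 was lowest and control rabbit 1 highest, and the groups overlapped. The log2 fold change of the sum was -0.55 (SE 0.48, edgeR adjusted p = 0.455). In the RefSeq annotation of the assembly mOryCun1.1, *CD3E*, *CD3D* and *CD3G* lie next to each other on chromosome 1, and LOC100355340 lies elsewhere on that chromosome, between LOC100339529 and LOC138847219. Entries for the antigen-binding chains themselves were sought by their descriptions, and no constant region was found, so their level cannot be read here. An entry described as a T cell receptor alpha chain V region, LOC103351165, held 0 to 3 counts per library, and *PTCRA*, the pre T cell receptor alpha chain of immature thymocytes, held at most 1.

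**Figure D2:**
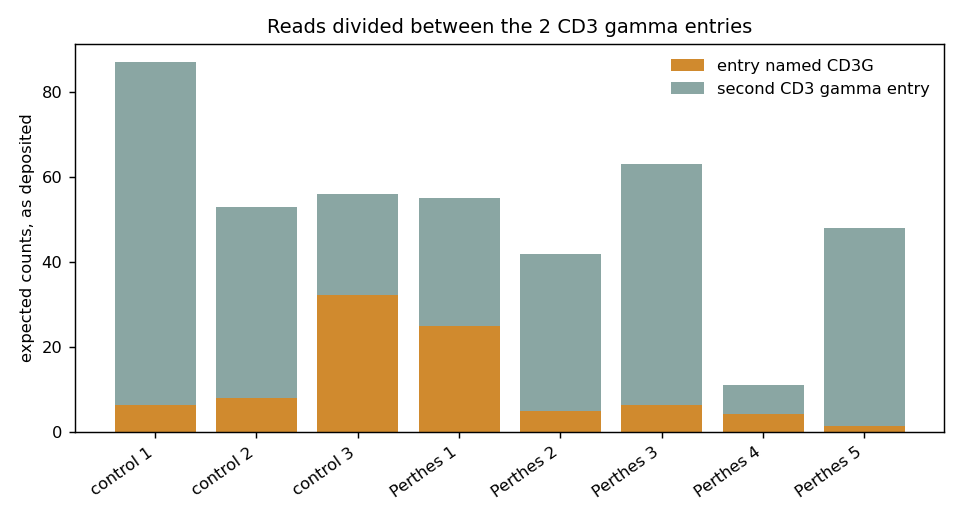
Expected counts per library, as deposited, of the entry named *CD3G* (orange) and of the second CD3 gamma entry (grey), stacked for the 3 control and 5 Perthes rabbits. The orange part reaches 32.38 counts in control 3 and 24.96 in Perthes 1, and is between 1.51 and 7.91 in the others, while the stacks run from 11 to 87.

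The other chains of the complex were measured at similarly few reads. *CD3D*, the delta chain, was at 0.437 to 1.102 CPM in the Perthes disease group and 0.846 to 1.97 CPM in the control group (log2 fold change -0.67, SE 0.39, edgeR adjusted p = 0.273). *CD247*, the zeta chain that carries most of the phosphorylation sites, was at 0.327 to 2.02 CPM and 1.87 to 2.72 CPM (log2 fold change -0.75, SE 0.47, edgeR adjusted p = 0.307). Both had Perthes rabbit 4 at the bottom and control rabbit 1 at the top. *CD5* and *CD6*, which dampen signaling, had log2 fold changes of -0.20 and -0.28 (edgeR adjusted p = 0.828 and 0.764). None of the 5 tested genes of this list was called in either direction.

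*CD4*, the coreceptor of helper T cells, was at 1.59, 0.861, 2.17, 0.582 and 2.21 CPM in Perthes rabbits 1 to 5. It was at 1.97, 0.458 and 1.197 CPM in control rabbits 1 to 3. Control rabbit 2 was the lowest of all 8 rabbits, and its 13 counts were the smallest value of *CD4* in the data. The means were 1.48 ± 0.743 CPM in the Perthes disease group (SD, n = 5) and 1.21 ± 0.753 CPM in the control group (SD, n = 3). A log2 fold change of 0.30 was fitted (SE 0.57, edgeR adjusted p = 0.750), and it turned to -0.092 without control rabbit 2.

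*CD8A*, the alpha chain of the coreceptor of cytotoxic T cells, was at 1.86, 3.78, 5.03, 2.18 and 2.11 CPM in Perthes rabbits 1 to 5. It was at 7.72, 4.23 and 4.29 CPM in control rabbits 1 to 3. Every Perthes rabbit other than rabbit 3 lay below every control rabbit. The means were 2.99 ± 1.37 CPM (SD, n = 5) and 5.41 ± 2.00 CPM (SD, n = 3), and the log2 fold change of -0.85 was the most negative of the group (SE 0.39, edgeR adjusted p = 0.163). An exact permutation test over the 56 divisions of the 8 rabbits, whose smallest possible two-sided p is 0.0357, gave p = 0.143. The log2 fold change was between -1.12 and -0.51 under every alternative run, and in none of these was its adjusted p below 0.05. *CD8B*, which encodes the partner chain and lies next to *CD8A* in the annotation, was at 0.473 to 1.498 CPM and 0.317 to 1.14 CPM (log2 fold change 0.65, SE 0.59, edgeR adjusted p = 0.479).

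*CD2*, an adhesion receptor of T and natural killer cells, was at 1.45, 0.786, 1.80, 0.691 and 0.749 CPM in Perthes rabbits 1 to 5. It was at 2.72, 1.45 and 1.33 CPM in control rabbits 1 to 3. Perthes rabbits 2, 4 and 5 lay below all controls, and rabbits 1 and 3 among them, with a log2 fold change of -0.74 (SE 0.43, edgeR adjusted p = 0.265).

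*LCK*, the Src family kinase that starts the signal, was at 2.97, 3.67, 5.40, 2.04 and 3.98 CPM in Perthes rabbits 1 to 5. It was at 8.65, 4.02 and 5.52 CPM in control rabbits 1 to 3. Rabbit 3 was the single Perthes rabbit within the range of the controls, and rabbit 5 lay just below that range. The means were 3.61 ± 1.25 CPM (SD, n = 5) and 6.06 ± 2.36 CPM (SD, n = 3), with a log2 fold change of -0.75 (SE 0.35, edgeR adjusted p = 0.175). An exact permutation test gave p = 0.0714.

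*ZAP70*, the kinase that docks on the phosphorylated CD3 chains, was at 1.93, 3.03, 2.86, 0.800 and 1.57 CPM in Perthes rabbits 1 to 5. It was at 5.86, 1.59 and 2.56 CPM in control rabbits 1 to 3. Control rabbit 1 stood far above the other controls and held 57.3% of the counts of *ZAP70* in its group. The log2 fold change was -0.71 (SE 0.51, edgeR adjusted p = 0.371) with all rabbits and -0.02 without control rabbit 1.

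*CD28*, which binds CD80 and CD86 and supplies the second signal of T cell activation, was at 18.7, 9.89, 6.39, 1.31 and 11.8 CPM in Perthes rabbits 1 to 5. It was at 1.04, 0.564 and 1.297 CPM in control rabbits 1 to 3. Perthes rabbits 1, 2, 3 and 5 stood well above the controls, whereas Perthes rabbit 4 was level with control rabbit 3. The means were 9.62 ± 6.45 CPM (SD, n = 5) and 0.966 ± 0.371 CPM (SD, n = 3). On the log2 scale the difference was 3.31 (SE 0.77, edgeR adjusted p = 0.0241), higher than that of 99.3% of all genes tested, and an exact permutation test gave the smallest p it can give, 0.0357.

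The separation of the groups for *CD28* rested on the scaling. Perthes rabbit 4 held 36 counts of *CD28* (exact 95% Poisson interval 25.2 to 49.8) and control rabbit 3 held 39 (27.7 to 53.3). When scaled by library totals alone, these were 1.24 and 1.35 CPM and the groups overlapped. The call was lost without Perthes rabbit 5 (edgeR adjusted p = 0.0537), without control rabbit 1 (0.0935) and without control rabbit 2 (0.0959), while the log2 fold change stayed between 2.92 and 3.59. Without control rabbit 1 the number of genes called in the whole table dropped to 73 higher and 184 lower, from 951 and 1356, and without control rabbit 2 to 0 in both directions, with 3722 genes at an unadjusted p below 0.05 in edgeR. The related receptors *CTLA4*, which neighbours *CD28* in the annotation, and *ICOS*, both named after their values were seen, held 1 to 12 and 12 to 43 counts per library with overlapping groups.

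*IL7R*, the alpha chain that binds interleukin 7 and also serves the receptor for TSLP, was at 171, 31.6, 76.6, 14.5 and 61.1 CPM in Perthes rabbits 1 to 5. It was at 6.002, 9.41 and 11.0 CPM in control rabbits 1 to 3. Every Perthes rabbit lay above every control rabbit, also with scaling by library totals, and Perthes rabbit 1 alone held 49.8% of the counts of its group. The means were 71.0 ± 61.2 CPM (SD, n = 5) and 8.80 ± 2.54 CPM (SD, n = 3), with a log2 fold change of 3.01 (SE 0.75, edgeR adjusted p = 0.0297). An exact permutation test gave its smallest possible p of 0.0357. The log2 fold change was 2.38 without Perthes rabbit 1 (edgeR adjusted p = 0.0343). The call was lost without Perthes rabbit 3 (edgeR adjusted p = 0.0611) or Perthes rabbit 5 (0.0577). It was also lost without control rabbit 1 (0.118), control rabbit 2 (0.102) or control rabbit 3 (0.0608). In the fits that lost it, the log2 fold change was between 2.80 and 3.20.

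**Figure D3:**
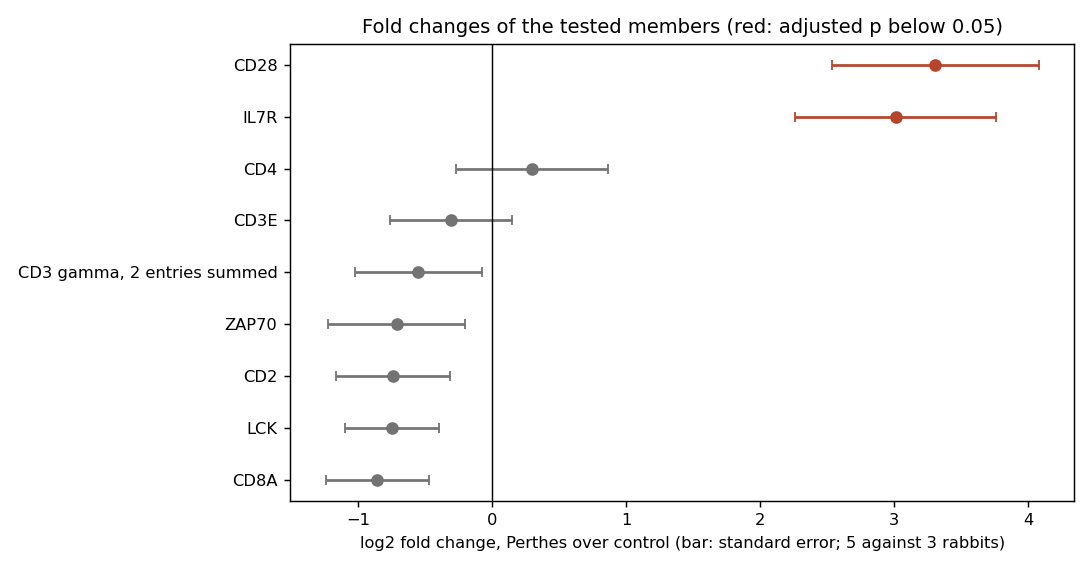
Log2 fold change (Perthes over control, 5 against 3 rabbits) of the 8 tested genes and of the CD3 gamma chain summed over its 2 entries, which was fitted separately, with bars of 1 standard error. *CD28* at 3.31 and *IL7R* at 3.01 are called (red), and the others lie between -0.85 and 0.30.

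Other cell types that may express *CD28* or *IL7R* were read from marker lists. Of the 10 macrophage markers, 5 were called higher in the Perthes disease group and none was called lower. No marker of the list was at 0 in all libraries. The sum of these markers was 1925, 1039, 1436, 478 and 1810 CPM in Perthes rabbits 1 to 5. Perthes rabbit 1 was thus highest and Perthes rabbit 4 lowest, as for *CD28* and *IL7R*. Perthes rabbit 4 was also the lowest of its group for *CD3E*, *CD4*, *CD2*, *LCK* and *ZAP70*. *CSF1R*, the receptor of the macrophage growth factor, was at 186 to 431 CPM in the Perthes disease group and 157 to 178 CPM in the control group (log2 fold change 1.07, SE 0.27). *CD68*, a lysosomal protein of macrophages, was at 113 to 419 CPM and 71.0 to 77.8 CPM (log2 fold change 2.02, SE 0.41). *MARCO* was the 1 marker of the 10 with a lower mean in the Perthes disease group. It was at 0.218 to 1.01 CPM and 0.529 to 4.22 CPM (log2 fold change -2.19, SE 0.66, edgeR adjusted p = 0.0542). The B cell and precursor list summed to 78.6 to 130 CPM and 82.4 to 129 CPM, with none of 11 tested markers higher and *MS4A1* lower. The natural killer list summed to 155 to 347 CPM and 144 to 204 CPM, with none of 3 tested markers called. *TYROBP*, an adaptor that myeloid cells also express, and *NCAM1* made up nearly all of this sum. *NCR3*, an activating receptor named after its values were seen, was at 0.255 to 0.918 CPM and 0.564 to 1.79 CPM (log2 fold change -0.99, SE 0.48, edgeR adjusted p = 0.193). The part of these cells in the levels of *CD28* and *IL7R* was not tested.

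To compare the genes within the same rabbit, each was set against *CD3E*, since a ratio within a library does not depend on its scaling. The log2 ratio of *CD28* to *CD3E* was 3.83, 3.14, 1.61, 1.36 and 3.23 in Perthes rabbits 1 to 5 and -1.21, -1.0 and 0.16 in control rabbits 1 to 3. The log2 ratio of *IL7R* to *CD3E* was 7.02, 4.81, 5.19, 4.83 and 5.60 in the Perthes rabbits and 1.33, 3.06 and 3.24 in the controls. For both genes each Perthes rabbit was above each control rabbit, Perthes rabbit 4 included. The ratios of *CD4*, *CD8A*, *CD2*, *LCK* and *ZAP70* to *CD3E* overlapped between the groups. The log2 ratio of *CD4* to *CD8A* was -0.23, -2.13, -1.22, -1.91 and 0.07 in the Perthes rabbits and -1.97, -3.21 and -1.84 in the controls, which also overlapped. Perthes rabbits 1 and 5 had the highest of these ratios and control rabbit 2 the lowest. These ratios are descriptions and were not tested.

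**Figure D4:**
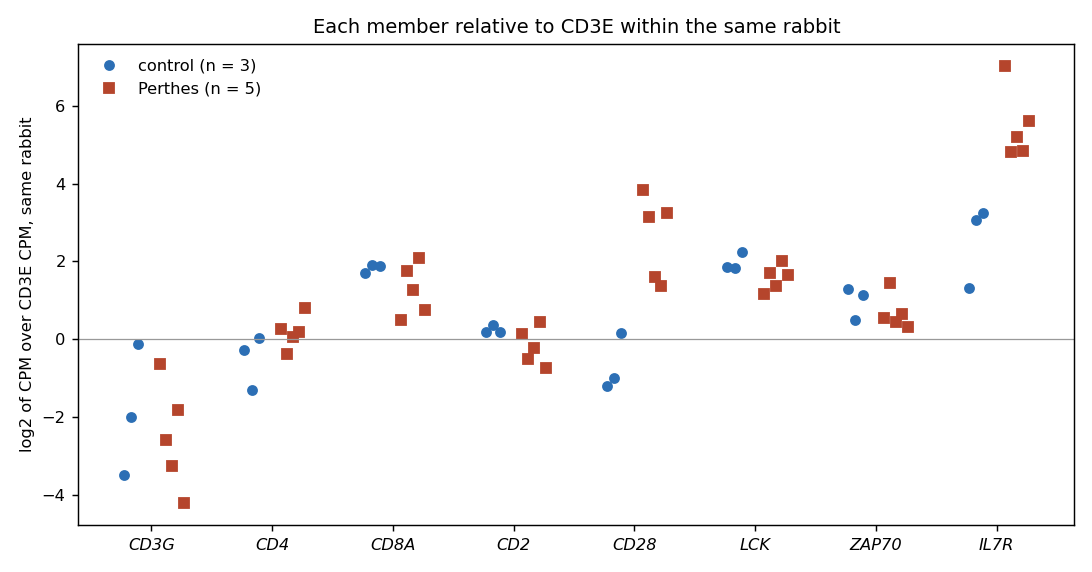
Log2 ratio of the CPM of each gene to that of *CD3E* in the same rabbit, for 3 control rabbits (blue circles) and 5 Perthes rabbits (red squares). The groups are apart for *CD28* and *IL7R*, with the lowest Perthes values at 1.36 and 4.81 and the highest control values at 0.16 and 3.24, and overlap for the other genes.

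The order of the rabbits within a group was shared only in part between the genes. Perthes rabbit 4 had the lowest level of its group for 7 of the 9 genes, *CD3G* and *CD8A* being the exceptions. Perthes rabbit 3 had the highest level for *CD3E*, *CD8A*, *CD2* and *LCK*, and Perthes rabbit 1 for *CD3G*, *CD28* and *IL7R*. Perthes rabbit 2 was highest for *ZAP70* and Perthes rabbit 5 for *CD4*, while Perthes rabbit 1 was lowest for *CD8A*. Among the controls, rabbit 1 was highest for 6 genes (*CD3E*, *CD4*, *CD8A*, *CD2*, *LCK* and *ZAP70*), and rabbit 3 for *CD3G*, *CD28* and *IL7R*. Control rabbit 1 was the lowest of its group for *IL7R* although it was the highest for *CD3E*.

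The genes whose pattern over the 8 rabbits was most like that of a given gene were searched among 12290 named mRNAs, by the root mean square difference of log2 CPM after centring, over both groups. *BCL11B*, a transcription factor of the T cell lineage, was nearest to *CD3E*, with a difference of 0.10 where *CD3E* itself varied by 0.59. *HVCN1*, a proton channel, and *ACSL5*, an acyl-CoA synthetase, followed at 0.21 and 0.22. The nearest to *CD4*, which varied by 0.77, were the chemokine receptors *CXCR6* (0.19) and *CXCR3* (0.21) and the cytokine *TNF* (0.31). The nearest to *IL7R*, which varied by 1.59, were *ASPA*, an enzyme that cleaves N-acetylaspartate (0.29), *FABP5*, a fatty acid carrier (0.35), and *ATP6V0D2*, a proton pump subunit abundant in osteoclasts (0.36).

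Around the 9 genes, 92 further genes of the pathway were taken in 7 lists, of which 82 were listed in the table and 74 were tested. In the Perthes disease group 4 of the 74 were higher (5.41%) and 14 lower (18.9%), against 6.21% and 8.86% of all genes tested, and their median log2 fold change was -0.37. With library totals in place of TMM factors the whole table was called 678 higher and 1705 lower, and these lists 3 higher and 15 lower. The lower counts moved with single rabbits. The 14 became 7 without Perthes rabbit 1, 5 without Perthes rabbit 3, 2 without Perthes rabbit 5 and 0 without control rabbit 1 or control rabbit 2. Calls were lost over the whole table in the same fits, with the 1356 genes called lower becoming 1198, 646 and 550 without Perthes rabbits 1, 3 and 5, and 184 and 0 without control rabbits 1 and 2. The 4 became 1 without Perthes rabbit 1 or 3, 2 without Perthes rabbit 5 or control rabbit 3, 6 without Perthes rabbit 4, and 0 without control rabbit 1 or control rabbit 2. The 951 genes called higher in the whole table became 802, 385, 1267 and 351 without Perthes rabbits 1, 3, 4 and 5. They became 73, 0 and 695 without control rabbits 1, 2 and 3.

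Of the 22 genes of proximal signaling, 7 were lower and *FYN* was higher (median log2 fold change -0.75). *UBASH3A*, which restrains the receptor signal, was at 0.608, 1.46, 1.03, 0.546 and 0.681 CPM in Perthes rabbits 1 to 5 and 5.79, 3.60 and 1.86 CPM in the controls, with no overlap (log2 fold change -2.11, SE 0.44, edgeR adjusted p = 0.0180). *TESPA1*, needed for thymocyte maturation, fell by 1.56 on the log2 scale (SE 0.40, edgeR adjusted p = 0.0322) and *TXK*, a Tec family kinase, by 1.83 (SE 0.48, edgeR adjusted p = 0.0339). The adaptors *SIT1* and *GRAP2* and the phosphatase *PTPN22* were also lower. *FYN*, a kinase akin to *LCK* that is expressed in many tissues, rose from 45.9 ± 4.87 CPM in the control group (SD, n = 3) to 89.5 ± 27.4 CPM in the Perthes disease group (SD, n = 5; edgeR adjusted p = 0.0446).

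Among 10 tested costimulatory and inhibitory receptors, 3 were lower and none was higher. *CD226*, a receptor of T cells, natural killer cells and platelets, was at 1.56 to 5.06 CPM in the Perthes disease group and 11.3 to 19.3 CPM in the control group (log2 fold change -2.21, SE 0.36, edgeR adjusted p = 0.0122). *SLAMF6* and *CD27* fell by 1.35 and 1.33 on the log2 scale (edgeR adjusted p = 0.0291 and 0.0442). *CD40LG*, the CD40 ligand of helper T cells, was at 0.0364 to 0.272 CPM and 0.458 to 0.665 CPM, and its adjusted p of 0.0590 in edgeR missed the threshold. *HAVCR2*, another receptor of the list, was at 0.861 to 1.63 CPM and 0.464 to 0.635 CPM without overlap. Its log2 fold change of 1.104 (SE 0.34, edgeR adjusted p = 0.0592) missed the threshold on the higher side. The direction of *CD28* was not that of the called members of this list, but it was that of *HAVCR2*.

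Of 6 tested ligands, 2 were higher and none was lower. *CD80*, the ligand of *CD28* on antigen-presenting cells, was at 32.1, 14.2, 19.3, 5.09 and 20.7 CPM in Perthes rabbits 1 to 5. It was at 5.82, 3.88 and 4.46 CPM in control rabbits 1 to 3. Perthes rabbit 4 lay among the controls and the other 4 above them (log2 fold change 1.95, SE 0.51, edgeR adjusted p = 0.0344). *CD274*, the ligand of the inhibitory receptor PD-1, was at 11.5 to 61.7 CPM and 3.10 to 4.99 CPM without overlap (log2 fold change 2.75, SE 0.54, edgeR adjusted p = 0.0156). *CD86*, the other ligand of *CD28*, was at 1.89 to 13.7 CPM and 3.25 to 4.22 CPM (log2 fold change 1.104, SE 0.53, edgeR adjusted p = 0.184). Of the 10 macrophage markers, 5 were also called higher in the Perthes disease group, and the part of macrophages in these values was not tested.

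In the interleukin 7 and common gamma chain axis, *IL2RG* was the 1 gene called among 10. It encodes the common gamma chain, which pairs with *IL7R*, and it was at 5.40, 7.11, 6.02, 6.73 and 7.66 CPM in Perthes rabbits 1 to 5. It was at 20.8, 10.2 and 11.4 CPM in control rabbits 1 to 3. All Perthes rabbits lay below all controls (log2 fold change -1.10, SE 0.25, edgeR adjusted p = 0.0233), the opposite direction to *IL7R*. *IL7* itself, named after its value was seen, had a log2 fold change of -0.07 (edgeR adjusted p = 0.924), and *TSLP*, the other ligand of a receptor with *IL7R*, had 1.38 (SE 0.61, edgeR adjusted p = 0.157). *STAT5B*, a transcription factor downstream of the receptor, was at 34.8 to 66.8 CPM and 52.3 to 89.1 CPM (log2 fold change -0.57, SE 0.25, edgeR adjusted p = 0.150).

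Among 18 T cell transcription factors and homing receptors, 2 were lower and 1 was higher. *IKZF3*, a lymphoid factor, fell by 1.34 on the log2 scale (edgeR adjusted p = 0.0298). *LEF1*, a Wnt effector in T cells and in mesenchymal cells, was at 28.6 to 70.8 CPM and 14.0 to 25.8 CPM (log2 fold change 1.28, SE 0.34, edgeR adjusted p = 0.0359). Of 3 tested cytotoxic genes, *NKG7*, a granule membrane protein, was lower, with 0.101 to 6.18 CPM against 23.4 to 58.9 CPM (log2 fold change -3.50, SE 0.86, edgeR adjusted p = 0.0284). *PRF1*, which encodes perforin, was at 0.262 to 1.29 CPM and 0.732 to 2.29 CPM (edgeR adjusted p = 0.210). The 7 neutrophil markers were all lower in the mean of the Perthes disease group with 3 of them called, none of them at 0 in all libraries, and their part in the level of *NKG7* was not tested.

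**Figure D5:**
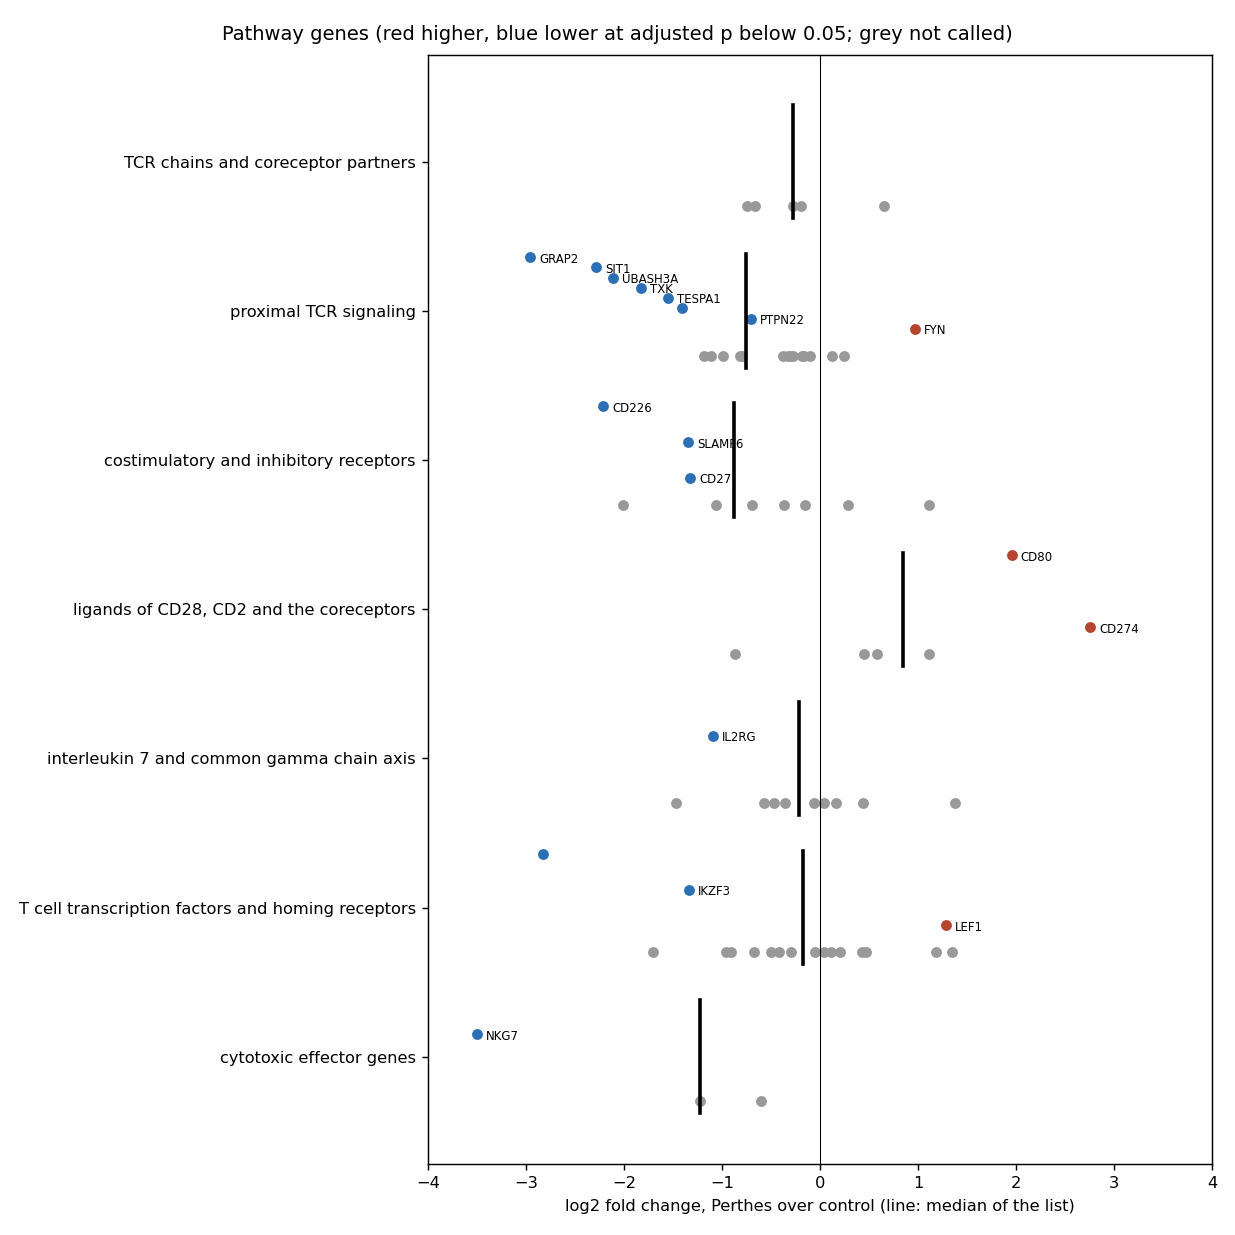
Log2 fold change (Perthes over control) of the 74 tested pathway genes in 7 lists, with 1 point per gene and a vertical line at the median of each list (called genes named in the text are labelled, and height within a list has no meaning). The 14 genes called lower (blue) lie left of 0, 7 of them in proximal signaling, and the 4 called higher (red) are *FYN*, *CD80*, *CD274* and *LEF1*.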

How the data were processed

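Ribosomal RNA was removed from total RNA of the femoral head (5 Perthes and 3 control rabbits) before directional libraries were made. The authors cleaned the reads with SOAPnuke, aligned them by HISAT2 2.0.4 to a rabbit genome build that the study's methods name, and used RSEM 1.1.17 and HTSeq 1.99.2 for quantification. The values they deposited are expected counts per gene without normalization. RSEM can divide 1 read over several genes, and 10.7% of values at most were fractional in a library. Another 8 per-sample columns repeat the 8 used here and were left out. The small RNA table was not used here.

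Expected counts were rounded, genes were filtered with filterByExpr by group, and TMM scaling and the quasi-likelihood test of edgeR 4.0.16 in R 4.3.3 were applied, with Benjamini-Hochberg adjustment over 15305 genes. Standard errors of log2 fold changes were taken as the size of the change over the square root of F. Log2 CPM used a prior count of 2. Exact two-sided permutation tests used all 56 divisions of the rabbits. The alternatives were DESeq2 1.42.0, 2 other scalings, 2 other count filters, a log2 fold change beyond 1, the replicate number as a block, each rabbit left out, and *CD3G* summed with its partner entry. P-values measure the spread between samples that the labels number as replicates.

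The 9 genes, the pathway lists and the marker lists were chosen with earlier results of these data known. Beside the 9 genes, the text names the 4 genes with the smallest p of each pathway list, every gene of the receptor chain list, the 2 most abundant genes of each marker list and the 3 nearest patterns, or a selection of these. Some genes of the pathway lists enter the counts and are not reported here by name. *SIT1*, *GRAP2*, *PTPN22*, *FYN* and *MS4A1* are outside this rule and are named to complete a count of calls. *HAVCR2* and *MARCO* are also outside this rule and were named after their values were seen. Gene order was read from the RefSeq annotation of mOryCun1.1, another assembly than the authors', from which no coordinates were used.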

Additional observations from a re-analysis of the deposited data

Results flagged for a closer look

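In 7 of 63 groups of 5 Perthes rabbits, the highest rabbit stood farther from the next one than Dixon's limit for 5 samples (0.71 of the range) allows. The limit flags about 1 in 20 groups of independent, normally distributed values. Here most values were CPM without logs and all groups held the same rabbits, so 7 of 63 cannot be set against that rate. Of the 9 genes this concerned *CD3G*, at 0.844 CPM in Perthes rabbit 1 against 0.220 CPM or less in the other 4, the entry whose reads were split with a second CD3 gamma entry. Of the pathway genes, *TESPA1* was at 0.974 CPM in Perthes rabbit 2 with the next rabbit at 0.514 CPM. In Perthes rabbit 3, *EOMES* was at 0.808 CPM with the next at 0.340 CPM, and *PRF1* was at 1.29 CPM with the next at 0.545 CPM. Of the marker genes, *SLC4A1* at 819 CPM and *ALAS2* at 733 CPM stood apart in Perthes rabbit 2, with the next rabbits at 149 and 167 CPM, and *SPP1* was at 3067 CPM in Perthes rabbit 5 with the next at 1883 CPM.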

How the results depend on the processing

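None of the 9 genes was called lower under any of the 16 alternatives. The 2 called higher were 2 with DESeq2, both other scalings, both other filters, the fold-change threshold and the summed *CD3G*, and 0 to 2 with 1 rabbit left out. The log2 fold change of *CD3E* was -0.57 to 0.14 with 1 rabbit left out and reversed without control rabbit 1, and that of *CD4* was -0.092 to 0.84 and reversed without control rabbit 2. The 4 pathway genes called higher became 0 to 6, and the 14 called lower 0 to 17, with 1 rabbit left out. Under the other alternatives apart from the block they were 3 to 6 and 11 to 17. With the replicate number as a block, 0 of the 9 genes and 0 pathway genes in either direction were called. Of all genes 0 were called, with 3152 at an unadjusted p below 0.05 in edgeR. *CD28* had a log2 fold change of 3.52 (edgeR adjusted p = 0.104) and *IL7R* of 3.10 (0.128). An unadjusted p below 0.05 was reached by 2 of 8 genes. Replicate numbers 4 and 5 exist only in the Perthes disease group, so this fit compared Perthes rabbits 1 to 3 with control rabbits 1 to 3. Deviations of same-numbered rabbits correlated at -0.32, 0.16 and -0.24, and those of differently numbered rabbits at -0.31 to 0.44. So few correlations cannot decide whether rabbits of the same number share a batch or a pairing. DESeq2 called 1700 genes higher and 1917 lower in the whole table. For *CD3G*, removed by the filter, the log2 ratio of the group means was -0.83, against -1.18 to -0.81 in the 4 fits that kept it and -0.55 when summed. Counts of 2 to 67 per library limit the precision of *CD3E*, *CD3G* and *CD4*.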
